A study of Mus musculus with 27 samples.

Results

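Cortex ipsilateral to a transient arterial occlusion was compared with contralateral cortex after 12 h of reperfusion, over every gene of the deposited count table. The libraries were chosen by their labels, 3 ipsilateral and 3 contralateral, which are 6 of the 27 libraries of the series. The table lists 22340 genes. Of these, 18087 passed a filter on low counts and were tested, while 4253, which held 0.0116% of the counts, were not tested. The animals were wildtype C57BL6 mice of 7-8 weeks, anaesthetised briefly with isoflurane, and the labels name no transgene or drug treatment. A nylon suture blocked the right middle cerebral artery for 35 min (MCAO) while the common carotid artery was ligated, and blood flow was then restored for 3, 6, 12 or 24 h. Sham animals were anaesthetised and had their arteries exposed with no filament, and 3 sham libraries are used here as a second reference. Replicate numbers mark days of surgery. Whether both hemispheres came from one animal, which hemisphere gave the sham tissue and when it was taken is not stated in the labels. Contralateral cortex belongs to a brain with a stroke, so it is not untouched tissue.

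Transient occlusion starves cortex of oxygen and glucose, and reperfusion then adds oxidative damage. Cells answer with heat shock factor 1, which drives cytosolic chaperones that refold denatured protein, and with the integrated stress response, in which a block of translation initiation favours the transcription factor ATF4 and its targets for amino acid supply and cell death. Depolarised neurons switch on immediate early genes, glia and vessels switch on cytokines and adhesion molecules, and damaged neurons lose transcripts for channels and synapses.

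The 6 libraries held 37088086 to 47918213 counts, and mitochondrial ribosomal RNA took 26.4% to 33.9% of them. Markers of cortical excitatory neurons were present in every library, with the vesicular glutamate transporter Slc17a7 at 587, 731 and 735 CPM (CPM is the count scaled to a common library size after TMM normalisation) in ipsilateral replicates 1, 2 and 3. Values below are given in that order of replicates. Ipsilateral replicate 2 stood apart: over 500 genes that were higher ipsilaterally at both 6 h and 24 h, its median log2 level above sham was 0.50, against 0.96 and 0.98 in replicates 1 and 3. It was the lowest of the 3 in 425 of the 532 genes that rose at least 2-fold. Contralateral replicate 1 had the highest levels of genes of neighbouring regions among the contralateral libraries. The summed level of 16 choroid plexus and ependyma genes was 92.6, 19.2 and 11.5 CPM in the 3 contralateral libraries. It was 34.5, 12.7 and 19.9 CPM ipsilaterally and 12.4, 21.0 and 13.6 CPM in sham. For 16 striatal neuron genes the sums were 835, 412 and 434 CPM contralaterally and 627, 446 and 490 CPM ipsilaterally. In sham the striatal sums were 673, 797 and 545 CPM, so sham replicate 2 was close to contralateral replicate 1. Summed CPM of 12 neutrophil genes was 6.94, 7.38 and 15.00 ipsilaterally, 7.804, 6.86 and 8.15 contralaterally and 5.81, 5.89 and 5.39 in sham, so ipsilateral replicate 3 was the highest.

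At 12 h 2214 genes (12.2% of those tested) differed between the hemispheres at an adjusted p under 0.05 in edgeR's quasi-likelihood test with Benjamini-Hochberg adjustment over the 18087 genes. Below, "rose" and "fell" are used for genes past that threshold. Of these genes 1437 (7.94%) rose and 777 (4.30%) fell. The rises were larger than the falls: 532 genes (2.94%) rose at least 2-fold and 27 (0.149%) fell at least 2-fold, and the median fold of the rises was 1.68. The median log2 fold change of all tested genes was -0.0058. All ipsilateral libraries lay above all contralateral ones for 16.9% of the tested genes and below them for 15.7%. Of the called genes, 2125 (96.0%) had no overlap between the hemispheres. Genes named below for the size of their change were chosen among those without overlap, so their separation is no further result. In tissue RNA, fewer cells of a type and less RNA per cell cannot be told apart. The count was 889 without ipsilateral replicate 1, 1435 without ipsilateral replicate 3, and 1362, 1448 and 1459 without contralateral replicates 1, 2 and 3. It was 3468 when a 3 h contralateral and a 24 h ipsilateral library, both with a high share of mitochondrial ribosomal RNA, were left out of the shared estimate of spread.

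**Figure D1:**
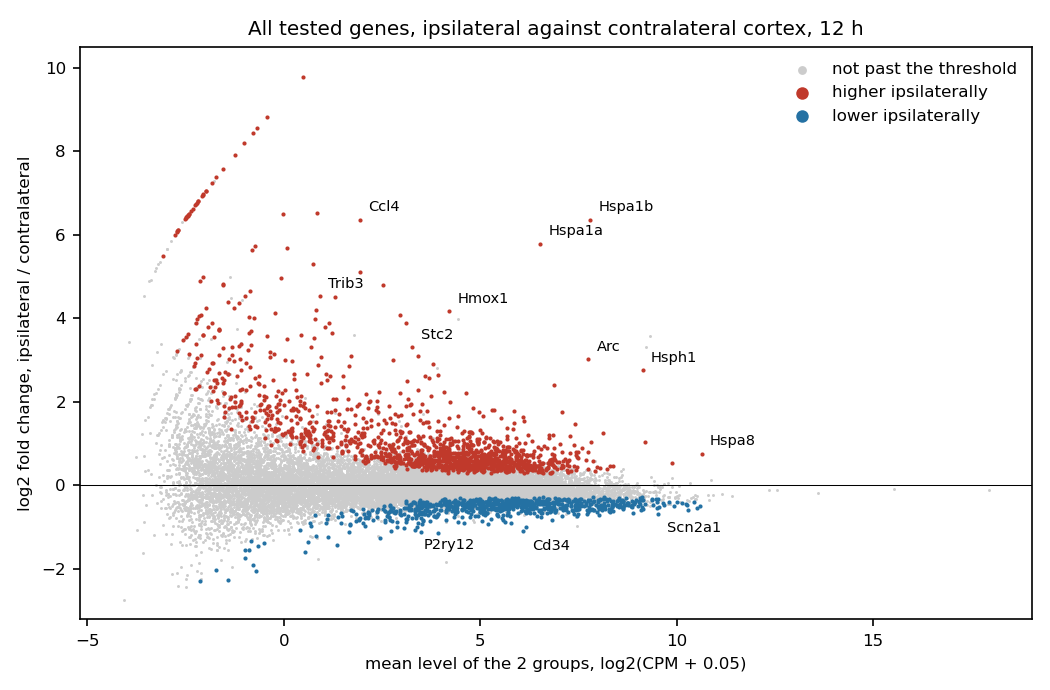
Each point is 1 of the 18087 tested genes, with its mean level on the horizontal axis and its log2 fold change (ipsilateral over contralateral, 12 h) on the vertical axis. Red points rose (1437 genes) and blue points fell (777 genes), grey points did not pass the threshold, and the falls stay closer to 0 than the rises.

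Most cytosolic chaperone genes rose: 18 of the 25 tested members of the list rose, none fell, and the median log2 fold change was 0.95, against -0.0058 for all genes and a background of 7.94% for rises. Lists and members were chosen with earlier results of these data known. List counts, here and below, are therefore descriptions and no independent test against the background. Some genes belong to several lists and are counted in each. Fgf21 is in the integrated stress response and growth factor lists, and Crh in the activity-regulated and interneuron lists. The inducible HSP70 genes Hspa1a and Hspa1b lie next to each other on chromosome 17 and are near-identical, so reads may be split between them. Hspa1b (chr17:34956436-34959238, minus strand, mm10) was at 549, 277 and 499 CPM ipsilaterally, 4.01, 6.53 and 5.51 CPM contralaterally and 6.44, 7.67 and 4.14 CPM in sham. Its log2 fold change was 6.36 ± 0.46 (SE), or 82.2-fold, with an adjusted p of 7.51e-08. The groups did not overlap, and replicate 2 was the lowest ipsilateral library. Hsph1 (chr5:149614287-149636376, minus strand), which encodes the HSP110 exchange factor of HSP70, gained more CPM than any other gene that rose: 1313, 690.0 and 940.2 CPM ipsilaterally against 129, 169.8 and 136 CPM contralaterally, a log2 fold change of 2.76 ± 0.22 (adjusted p = 4.6e-08). All its ipsilateral libraries were above all others. Hspb1, a small heat shock protein that holds unfolded clients, was at 23.4, 16.4 and 17.5 CPM against 2.45, 2.64 and 1.56 CPM.

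Other members of the list and cofactors of HSP70 and HSP90 rose as well. The list also holds the mitochondrial chaperonin pair Hspd1 and Hspe1, which share a promoter region and had log2 fold changes of 1.76 and 1.80. Hspd1 was at 271, 179 and 181 CPM ipsilaterally and 58.7, 62.9 and 63.9 CPM contralaterally, with no overlap. The J-domain cofactors Dnajb1, Dnaja1 and Dnajb4 had log2 fold changes of 2.40, 1.47 and 0.95, and the HSP70 cofactor Bag3 of 2.25. The constitutive HSP70 gene Hspa8 was already abundant, at 1099, 1259 and 1191 CPM contralaterally, and reached 2273, 2183 and 1565 CPM, a 1.697-fold rise. Hsp90aa1, the stress-inducible HSP90, rose 2.07-fold, and the constitutive Hsp90ab1 rose 1.45-fold, with an adjusted p of 0.0561 without ipsilateral replicate 1. Hsf1, Cryab, Hspa2, Hspb8, Ahsa1, Dnajb5 and Hspbap1 did not pass the threshold, and without ipsilateral replicate 3 Ahsa1 did (adjusted p = 0.0202). Of the chaperones and degradation factors of the endoplasmic reticulum 0 of 22 passed in either direction in edgeR. At an unadjusted p under 0.05, 4 were higher and 1 lower, and DESeq2 called 2 higher. Their median was 0.021, and Hspa5 (BiP) had a log2 fold change of 0.58 ± 0.21 with an adjusted p of 0.07, which was 0.0267 with the replicate block within each time and 0.0365 without ipsilateral replicate 2. The sign of the list's median differed among alternatives.

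Promoters were read to see whether chaperone genes share the core of the heat shock element. RefSeq promoters (GRCm38.p6, 250 bases before to 50 after a gene's start) were matched for 12403 of the 18087 tested genes, 15781 promoters in all. The core was searched as GAANNTTC or TTCNNGAA, which are each their own reverse complement. It was found in 13 of 28 promoters of the chaperone list (46.4%), in 12 of the 21 promoters of its members that rose (57.1%) and in 12.1% of all promoters. It was in 15.7% of promoters of genes that rose at least 2-fold, 12.8% of those of all rises and 18.3% of those of genes that fell at least 1.5-fold. The core was thus no more frequent in these rises than in these falls. The rises include members of the chaperone list, and shares without that list were not computed. The windows below are shown because they carry the core in chaperone genes that rose. Each is written 5′ to 3′ on the gene's strand, with the matched core in capitals.
Hsph1 (chr5:149636356-149636375, minus strand): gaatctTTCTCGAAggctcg
Hspa1a (chr17:34972247-34972266, minus strand): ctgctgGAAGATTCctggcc
Hspa1b (chr17:34959329-34959348, minus strand): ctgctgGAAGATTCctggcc
Hspd1 (chr1:55088053-55088082, minus strand): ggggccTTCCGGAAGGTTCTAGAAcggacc
Hspe1 (chr1:55088053-55088082, plus strand): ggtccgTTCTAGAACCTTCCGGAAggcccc
Dnaja1 (chr4:40722338-40722357, plus strand): cctctaGAAAATTCtacgag
Fkbp4 (chr6:128438794-128438813, minus strand): tctctaGAAAGTTCtccgct
The Hspa1a and Hspa1b windows were identical. Hspd1 and Hspe1 are read in opposite directions from one stretch, in which 3 matches overlap. A match describes these letters only, and no binding was measured.

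The integrated stress response list rose on the same side: 20 of 31 tested members rose, none fell, and the median log2 fold change was 0.75. Trib3 (chr2:152337422-152344032, minus strand), a pseudokinase induced by ATF4 and CHOP, was at 5.02, 2.31 and 3.26 CPM ipsilaterally, 0.223, 0.0927 and 0.139 CPM contralaterally and 0.394, 0.182 and 0.175 CPM in sham. The ratio of its summed counts (483 against 17, scaled for library size) was 24.5, with a 95% counting interval of 15.1 to 42.4 that covers counting error only. Chac1, which degrades glutathione, was at 36.7, 18.7 and 22.6 CPM against 4.01, 4.15 and 4.34 CPM (6.24-fold, adjusted p = 1.3e-06), and its 3 ipsilateral libraries all lay above the contralateral ones. Stc2, a secreted glycoprotein induced by this response, was at 25.9, 12.7 and 13.8 CPM against 2.17, 1.297 and 1.81 CPM.

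The transcription factors of the response rose as well. Atf4 had a log2 fold change of 0.75 ± 0.16, Ddit3 (CHOP) of 1.20 ± 0.21 and Cebpb of 1.76 ± 0.22. Ppp1r15a, the phosphatase subunit that ends the translation block, rose 2.65-fold. Supply of amino acids and one-carbon units was represented by Mthfd2 (3.86-fold), Shmt2 (2.17-fold), the cationic amino acid carrier Slc7a1 (2.31-fold) and the aminoacyl-tRNA synthetase genes Cars, Aars and Sars (0.81, 0.65 and 0.57 on the log2 scale). Asns, Psat1, Phgdh, Slc7a11 and the synthetase genes Gars, Mars, Nars and Wars did not pass. Wars was borderline: it stayed uncalled in 8 of 15 alternatives and passed in the others (adjusted p down to 0.00859). Among those others was the replicate block within each time (adjusted p = 0.0393). Without ipsilateral replicate 3, Wars (0.049), Asns (0.0226), Gars (0.00895) and Nars (0.0254) passed, in adjusted p. The call of Sars was lost without ipsilateral replicate 1 or 2 and without contralateral replicate 1 (adjusted p up to 0.092) and that of Aars without ipsilateral replicate 1 and without contralateral replicate 1 (adjusted p up to 0.0804). Fgf21, a stress hormone, had 52 counts in the 3 ipsilateral libraries together and 0 in the contralateral ones. With the contralateral group set to a floor of 3 summed counts, it was at least 14.9-fold higher. Gdf15, another stress-induced secreted factor, had 210 counts against 10, a ratio of 18.1 (95% counting interval 9.64 to 38.3).

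The C/EBP-ATF response element, searched as TGATGNAA and its reverse complement, was in 9 of 31 promoters of this list (29.0%) and in 2.46% of all promoters. It was in 4 of 20 promoters of members that rose and in 5 of 11 promoters of members that did not pass, so it did not separate them. The following windows show it in members that rose.
Chac1 (chr2:119351043-119351062, plus strand): ctgccgTTGCATCActcctg
Fgf21 (chr7:45615616-45615635, minus strand): cccccaTTGCATCAtccgtc
Aars (chr8:111033724-111033743, plus strand): tgagcaTTGCATCAgccgag
The capitals mark the element on the strand opposite to TGATGNAA. The AP-1 element, TGANTCA, to which FOS and JUN proteins bind, was in 53 of 465 promoters of genes that rose at least 2-fold (11.4%), in 7.32% of promoters of all genes that rose and in 5.61% of all promoters. Of all promoters, 73 held both the C/EBP-ATF element and the heat shock core, and 156 both the AP-1 element and the heat shock core.

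Most oxidative stress genes did not pass. Of 25 members of the NRF2 and metallothionein list 4 rose and 2 fell, beside 7.94% and 4.30% of all tested genes, and 19 did not pass. The list's median was 0.097, and 7 members rose with the replicate block within each time. Hmox1, the inducible heme oxygenase, had ipsilateral levels of 52.2, 23.1 and 30.2 CPM and contralateral levels of 1.51, 1.81 and 2.56 CPM (17.97-fold). Thioredoxin reductase Txnrd1 was at 83.2, 56.9 and 75.6 CPM against 29.2, 32.99 and 32.2 CPM, and sulfiredoxin Srxn1 at 144, 136 and 125 CPM against 65.3, 72.8 and 78.03 CPM, in both cases with every ipsilateral library above every contralateral one. The glutathione transferase genes Gsta4 and Gstm1 fell, by 1.48-fold and 1.46-fold, and Gstm1 belongs to a family of similar genes among which reads may be split. Gstm1 lost its call without ipsilateral replicate 1 (adjusted p = 0.0986). Nqo1, Gclc, Gclm and the metallothionein genes Mt1 and Mt2 did not pass, and with the replicate block within each time Mt1 (adjusted p = 0.0318) and Mt2 (0.0403) did. The core of the antioxidant response element (TGACNNNGC or its reverse complement) was in 8 of 25 promoters of the list (32%), among them 6 of 20 of members that did not rise, and in 14.0% of all promoters. It was about as frequent in lists of other responses, with 9 of 31 immediate early promoters (29.0%) and 8 of 31 integrated stress response promoters (25.8%).

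Of 28 immediate early genes, which cells switch on within minutes of a stimulus, 11 rose and none fell, with a median log2 fold change of 0.87, and the count was 17 without ipsilateral replicate 2 and 7 without contralateral replicate 3. Arc (chr15:74669083-74672570, minus strand), which encodes a synaptic cytoskeletal protein, was at 445, 287 and 423 CPM ipsilaterally, 47.3, 59.7 and 34.5 CPM contralaterally and 273, 190.2 and 236 CPM in sham. The 3 groups did not overlap, with sham between the hemispheres. Summed over the list, levels were 1042, 749.7 and 1232 CPM ipsilaterally, 413, 476 and 353 CPM contralaterally and 1048, 750.5 and 831 CPM in sham. Ipsilateral and sham sums overlapped, and all contralateral sums were lower than both.

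Single members differed in where sham lay. Atf3, a stress-induced repressor, was at 10.8, 4.71 and 17.7 CPM ipsilaterally, 0.641, 0.185 and 0.390 CPM contralaterally and a mean of 0.931 CPM in sham. Jun was likewise at 73.8, 39.2 and 70.2 CPM against 17.2, 16.6 and 18.95 CPM, with a sham mean of 21.6 CPM near the contralateral level. Egr2 was at 4.21, 1.62 and 9.34 CPM ipsilaterally and 1.64, 1.85 and 0.751 CPM contralaterally, with a sham mean of 6.74 CPM, so the hemispheres overlapped through ipsilateral replicate 2 and all sham libraries were above the contralateral ones. The call of Egr2 was lost without ipsilateral replicate 1 or 3, without contralateral replicate 1, 2 or 3, with the 6 compared libraries alone in the fit and with the replicate block within each time (adjusted p up to 0.218). Npas4, a neuronal activity factor, was at 22.7, 9.54 and 57.7 CPM against 12.6, 7.55 and 2.56 CPM, with 16.9 CPM in sham, and its call was lost without ipsilateral replicate 3, without contralateral replicate 2 or 3, with the 6 compared libraries alone in the fit and with the replicate block within each time (adjusted p up to 0.27). Fos did not pass: it was at 11.5, 8.68 and 32.8 CPM ipsilaterally, 6.19, 7.88 and 2.17 CPM contralaterally and 47.5, 25.8 and 28.4 CPM in sham (log2 fold change 1.70 ± 0.56, adjusted p = 0.0562, and 0.0378 with the replicate block). Egr1, Fosb, Junb, Nr4a1 and Nr4a2 did not pass either, but Junb did with the replicate block within each time (adjusted p = 0.0413). Without ipsilateral replicate 2 the adjusted p was 0.0289 for Fos, 0.0185 for Egr1, 0.0414 for Fosb and 0.0395 for Junb, and without contralateral replicate 2 it was 0.0205 for Egr1.

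Feedback genes of ERK signalling, which are induced by the kinase they restrain, had 11 of 16 members higher, none lower and a median of 0.76. The receptor tyrosine kinase inhibitor Spry4 was at 24.3, 17.2 and 21.95 CPM against 7.78, 9.22 and 8.68 CPM, with 16.5, 15.2 and 17.5 CPM in sham (2.47-fold, adjusted p = 1.87e-07). The phosphatase genes Dusp2, Dusp5, Dusp16, Dusp14 and Dusp6 had log2 fold changes of 2.45, 1.18, 1.14, 1.05 and 0.84. Dusp6 was at 82.5, 69.2 and 77.9 CPM ipsilaterally, 38.7, 48.1 and 41.7 CPM contralaterally and 91.1, 69.8 and 80.98 CPM in sham. Secreted and synaptic genes that follow activity went both ways: of 26 members 6 rose and 3 fell, with falls numbering 1 without ipsilateral replicate 1, 1 without ipsilateral replicate 3 and 1 without contralateral replicate 2. The small GTPases Rrad and Gem, which restrain calcium channels, rose 6.41-fold and 6.12-fold, and the synaptic pentraxin Nptx2 rose 2.91-fold, while Nrn1, Pcsk1 and Crh fell by 1.44-fold, 1.63-fold and 1.79-fold. Nrn1 lost its call without ipsilateral replicate 1 or 3 and without contralateral replicate 2 or 3 (adjusted p up to 0.137), and Crh without ipsilateral replicate 1 or 3 and without contralateral replicate 1 or 2 (adjusted p up to 0.177). Bdnf did not pass, with a log2 fold change of 0.05 ± 0.23.

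Targets of p53 and genes of cell death had 11 of 27 members higher and none lower (median 0.73), with 6 without ipsilateral replicate 1. The BH3-only killers Pmaip1 (Noxa) and Bbc3 (Puma) rose 3.61-fold and 2.43-fold, and Bbc3 lost its call without ipsilateral replicate 1 and without contralateral replicate 2 or 3 (adjusted p up to 0.0883). Pmaip1 was at 8.07, 7.16 and 5.18 CPM against 1.51, 1.81 and 2.34 CPM. The cell cycle inhibitor Cdkn1a was at 19.6, 13.9 and 17.4 CPM against 4.21, 5.91 and 4.68 CPM, and the stress sensor Gadd45b at 20.6, 8.56 and 23.6 CPM against 3.82, 3.34 and 3.73 CPM. Genes that oppose these also rose: Mdm2, the ligase that degrades p53, 1.72-fold and the survival gene Mcl1 1.67-fold. Bax, Bid and Fas did not pass, but Bax did with the replicate block within each time (adjusted p = 0.0246).

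Inflammatory genes rose, and several were far highest in ipsilateral replicate 3. Of 18 tested chemokine genes 9 rose and 1 (Cx3cl1, made by neurons) fell, and 4 rose without ipsilateral replicate 3. Ccl9 was at 4.55, 2.94 and 41.2 CPM ipsilaterally and 0.892, 1.297 and 1.06 CPM contralaterally, and its adjusted p of 0.00902 became 0.165 with the 6 compared libraries alone in the fit and 0.125 without ipsilateral replicate 3. Ccl4 was at 1.74, 0.662 and 20.1 CPM against 0.0557, 0 and 0.223 CPM, with 982 summed counts against 10, and its adjusted p of 0.00241 became 0.153 with the 6 compared libraries alone in the fit. Ccl12 and Cxcl16 were more even, at 2.77, 2.11 and 6.38 CPM against 0.307, 0.324 and 0.167 CPM and 1.82, 1.67 and 3.54 CPM against 0.557, 0.625 and 0.807 CPM. Beside these values, the summed neutrophil genes of ipsilateral replicate 3 were also the highest of the 6 libraries, and their part in the result was not tested.

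Among cytokines and their receptors 8 of 28 members rose and none fell (5 without ipsilateral replicate 3). Il1rn, the interleukin 1 receptor antagonist, had 40, 4 and 313 counts in the 3 ipsilateral libraries and 0 contralaterally. With the same floor of 3 summed counts it was at least 102.5-fold higher, and at least 18.7-fold higher without ipsilateral replicate 3. Its call was lost without ipsilateral replicate 3, without contralateral replicate 1, 2 or 3 and with the replicate block (adjusted p up to 0.155). The receptor genes were more even. Osmr, the oncostatin M receptor, was at 21.01, 16.8 and 27.5 CPM against 5.21, 4.36 and 5.15 CPM, and Tnfrsf12a, the TWEAK receptor, at 7.52, 7.38 and 9.96 CPM against 2.51, 2.06 and 1.53 CPM. Tnf had 171 counts against 12, a ratio of 12.3 (95% counting interval 6.85 to 24.2). Il1b and Il6 did not pass, but did without ipsilateral replicate 2 (adjusted p = 0.0266 and 0.0369), and Il1b had a log2 fold change of 1.58 ± 0.65. Of 20 feedback genes of NF-kappaB and JAK-STAT signalling 10 rose, among them Socs3 (3.52-fold), Nfkbiz (2.44-fold), Relb (2.28-fold) and Stat3 (1.695-fold), and the count was 3 without ipsilateral replicate 3, 6 without contralateral replicate 1 and 4 without contralateral replicate 2. The call of Socs3 was lost without ipsilateral replicate 3, without contralateral replicate 2 or 3 and with the 6 compared libraries alone in the fit (adjusted p up to 0.194).

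Phagocyte activation genes had 9 of 28 members higher and none lower (median 0.94), with 5 without ipsilateral replicate 3. Tlr2, a sensor of bacterial and damage ligands, was at 5.02, 4.12 and 7.302 CPM against 0.892, 0.510 and 0.890 CPM, and all ipsilateral libraries were higher. Cd14, its co-receptor, was at 4.53, 3.43 and 28.7 CPM against 2.01, 1.39 and 1.17 CPM, so most of its difference came from ipsilateral replicate 3, and its adjusted p of 0.0137 became 0.174 with the 6 compared libraries alone in the fit, 0.0731 with the replicate block within each time, 0.174 without ipsilateral replicate 3, 0.0576 without contralateral replicate 2 and 0.0609 without contralateral replicate 3. Lgals3 (galectin 3) had 405 counts against 30, a ratio of 11.6 (95% counting interval 8.02 to 17.5). Markers of resting microglia went the other way in part, with 0 of 25 higher and 4 lower, a count that was 1 without ipsilateral replicate 1, 2 without contralateral replicate 1 and 8 with the replicate block within each time. The purine receptor P2ry12 was at 6.67, 7.58 and 5.31 CPM against 15.2, 13.7 and 12.4 CPM with 14.8 CPM in sham, but it lies within Med12l on the other strand and its adjusted p of 0.0159 became 0.0639 without ipsilateral replicate 1, 0.0803 without ipsilateral replicate 3 and 0.0567 without contralateral replicate 1. Selplg and Siglech fell by 1.98-fold and 1.800-fold, with an adjusted p for Selplg of 0.0512 without ipsilateral replicate 1. Tmem119, Cx3cr1 and Csf1r did not pass, but Csf1r did with the replicate block within each time (adjusted p = 0.0308), as did Tmem119 without ipsilateral replicate 2 (0.0108).

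Neutrophil, lymphocyte and blood markers did not pass the threshold in edgeR or in DESeq2. For neutrophils 12 of 18 listed genes were tested, 0 rose, 4 were higher at an unadjusted p under 0.05, and the median log2 fold change was 0.95, which turned to -0.17 in the alternative that gave its lowest value. S100a9 was at 0.324, 0.859 and 3.004 CPM ipsilaterally and 0.111, 0.649 and 0.390 CPM contralaterally. Of 17 T and B lymphocyte genes 4 were tested and 0 passed (1 higher and 1 lower at an unadjusted p under 0.05), and of 10 tested red cell and platelet genes 0 passed, also unadjusted. Of the neutrophil genes, 1 passed without ipsilateral replicate 2, and 1 with the replicate block within each time. In the same 2 alternatives 1 T and B lymphocyte gene fell.

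**Figure D2:**
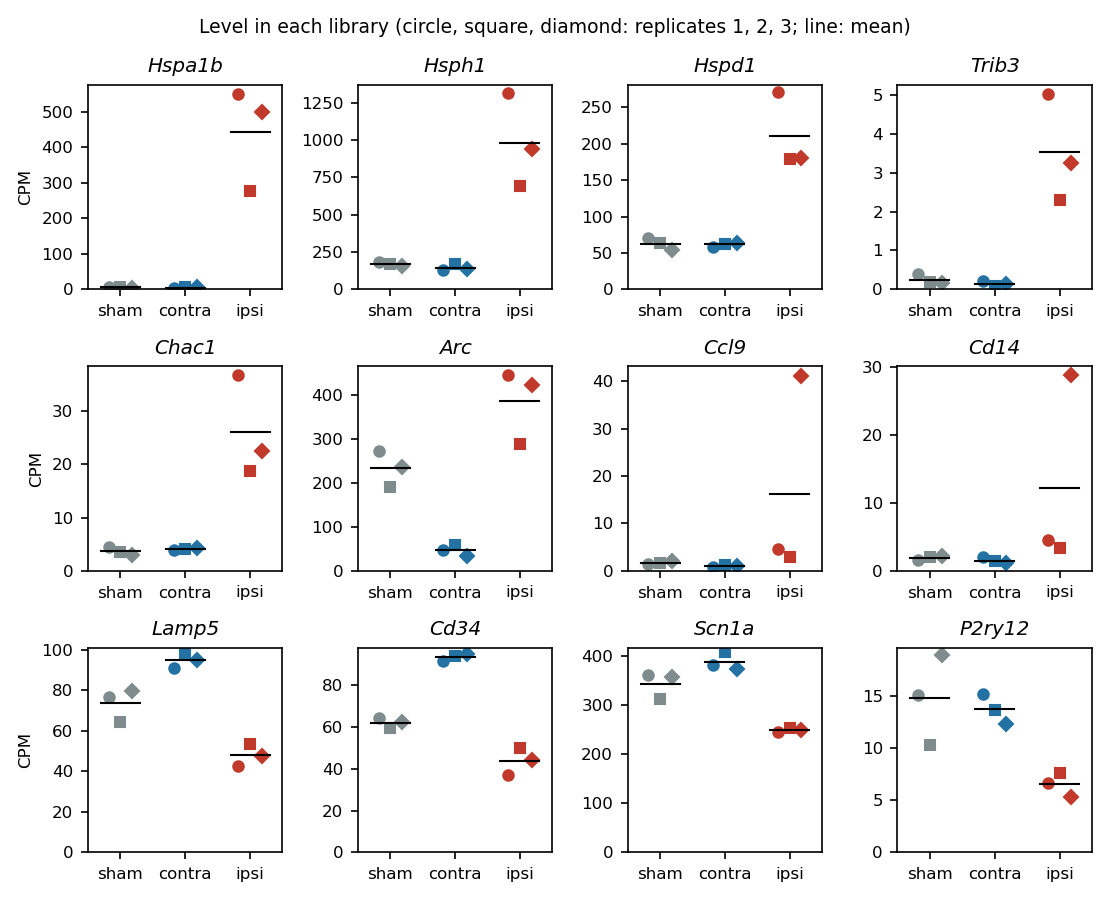
Level in CPM of 12 genes in the 3 sham, 3 contralateral and 3 ipsilateral libraries, with circles, squares and diamonds for replicates 1, 2 and 3 and a line at each mean. Ccl9 and Cd14 reach 41.2 and 28.7 CPM in ipsilateral replicate 3, far above the other libraries, whereas Hspd1, Chac1 and Scn1a are more even among the ipsilateral replicates. All of these genes separate the hemispheres, and Arc in sham lies between the hemispheres.

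Astrocyte genes divided by role. Of 26 reactive genes 12 rose and none fell (median 1.14), and the count was 7 without ipsilateral replicate 1, 4 without ipsilateral replicate 3, 7 without contralateral replicate 1, 5 without contralateral replicate 2 and 7 without contralateral replicate 3. Vim, an intermediate filament gene, was at 40.1, 45.97 and 54.2 CPM against 24.8, 18.5 and 15.5 CPM. Gfap, the defining filament of reactive astrocytes, was at 189.6, 253 and 222 CPM ipsilaterally, 107, 108 and 125 CPM contralaterally and 63.5, 81.6 and 83.5 CPM in sham, so it was lowest in sham. Its log2 fold change was 0.97 ± 0.27, and its adjusted p of 0.0227 became 0.0696 without ipsilateral replicate 2, 0.0564 without ipsilateral replicate 3, 0.0873 without contralateral replicate 1 and 0.0792 without contralateral replicate 2. Slc10a6 had 266 counts against 4, a ratio of 57.3 (95% counting interval 22.1 to 212). Lcn2, Serpina3n and Timp1 did not pass.

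Some genes of resting astrocyte function fell, 5 of 24, with 0 higher and a median of -0.34. That count was 0 without ipsilateral replicate 1, 8 without ipsilateral replicate 2, 3 without ipsilateral replicate 3, 2 without contralateral replicate 1, 3 without contralateral replicate 3, 8 with the replicate block over all libraries and 11 with the replicate block within each time. Glutamine synthetase Glul, which turns glutamate into glutamine, was at 908, 1161 and 1018 CPM ipsilaterally, 1533, 1380.4 and 1365 CPM contralaterally and 1050.0, 1219 and 1186 CPM in sham. It fell by 1.39-fold, and its adjusted p of 0.0069 was 0.0827 without ipsilateral replicate 1. The gap junction gene Gjb6 and the claudin Cldn10 fell by 1.46-fold and 1.402-fold. Gjb6 lost its call without ipsilateral replicate 1 and without contralateral replicate 3 (adjusted p up to 0.132), and Cldn10 without ipsilateral replicate 1, 2 or 3 and without contralateral replicate 1 (adjusted p up to 0.197). The glutamate transporters did not pass: Slc1a2 had a log2 fold change of -0.26 ± 0.14 (adjusted p = 0.247) and Slc1a3 of -0.32 ± 0.14 (adjusted p = 0.155). In both, contralateral replicate 1 was the highest of the 6 libraries. Aqp4 and Gja1 did not pass.

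Endothelial identity genes passed at about the rate of all tested genes. Of 30 endothelial junction and transporter genes 2 rose and 1 fell, beside 7.94% and 4.30% of all tested genes, and the median was -0.062. Cd34 (chr1:194938819-194961279, plus strand), a sialomucin of endothelium and progenitors, was at 37.2, 49.9 and 44.3 CPM ipsilaterally, 91.4, 94.1 and 95.1 CPM contralaterally and 64.2, 59.3 and 62.3 CPM in sham, with no overlap among the 3 groups. The amino acid carrier Slc7a5 and the lactate carrier Slc16a1 rose 1.82-fold and 1.699-fold. Of 21 activation and adhesion genes 6 rose, a count that was 2 without ipsilateral replicate 3, 3 without contralateral replicate 2 and 3 without contralateral replicate 3. Ptgs2 (COX-2), which neurons also express, was at 36.4, 29.5 and 46.4 CPM against 14.05, 15.9 and 16.5 CPM, with every ipsilateral library higher.

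Of 28 matrix genes 9 rose (5 without ipsilateral replicate 3, 5 without contralateral replicate 2 and 5 without contralateral replicate 3). The macrophage elastase Mmp12 had 465 counts against 4, a ratio of 100.1 (95% counting interval 38.8 to 369), and Mmp13 had 43 against 0, at least 12.3-fold higher with that floor and 8.92-fold without ipsilateral replicate 3. Tnc and Cyr61, which signal from matrix to cells, rose 3.81-fold and 4.07-fold, and Mmp3 and Mmp9 did not pass. Tnc lost its call without ipsilateral replicate 1 or 3, without contralateral replicate 1, 2 or 3 and with the 6 compared libraries alone in the fit (adjusted p up to 0.159), and Cyr61 without ipsilateral replicate 3, without contralateral replicate 1, 2 or 3 and with the 6 compared libraries alone in the fit (adjusted p up to 0.14). Of 28 growth factor genes 6 rose, beside 7.94% of all tested genes. Hbegf, an EGF receptor ligand, was among them, at 16.4, 17.3 and 20.5 CPM against 8.64, 8.57 and 6.901 CPM. Vegfa rose 1.405-fold, and its call was lost without ipsilateral replicate 1, 2 or 3, without contralateral replicate 1, 2 or 3 and with no filter on low counts (adjusted p up to 0.128). The hypoxia and glycolysis list had 3 members higher and 2 lower of 28, beside 7.94% and 4.30% of all tested genes, and a median of -0.069. Its rises numbered 0 without ipsilateral replicate 1, 1 without ipsilateral replicate 3, 1 without contralateral replicate 1 and 1 without contralateral replicate 3, and its falls 0 without ipsilateral replicate 1, 1 without ipsilateral replicate 2, 0 without ipsilateral replicate 3, 0 without contralateral replicate 1, 0 without contralateral replicate 2 and 0 without contralateral replicate 3.

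**Figure D3:**
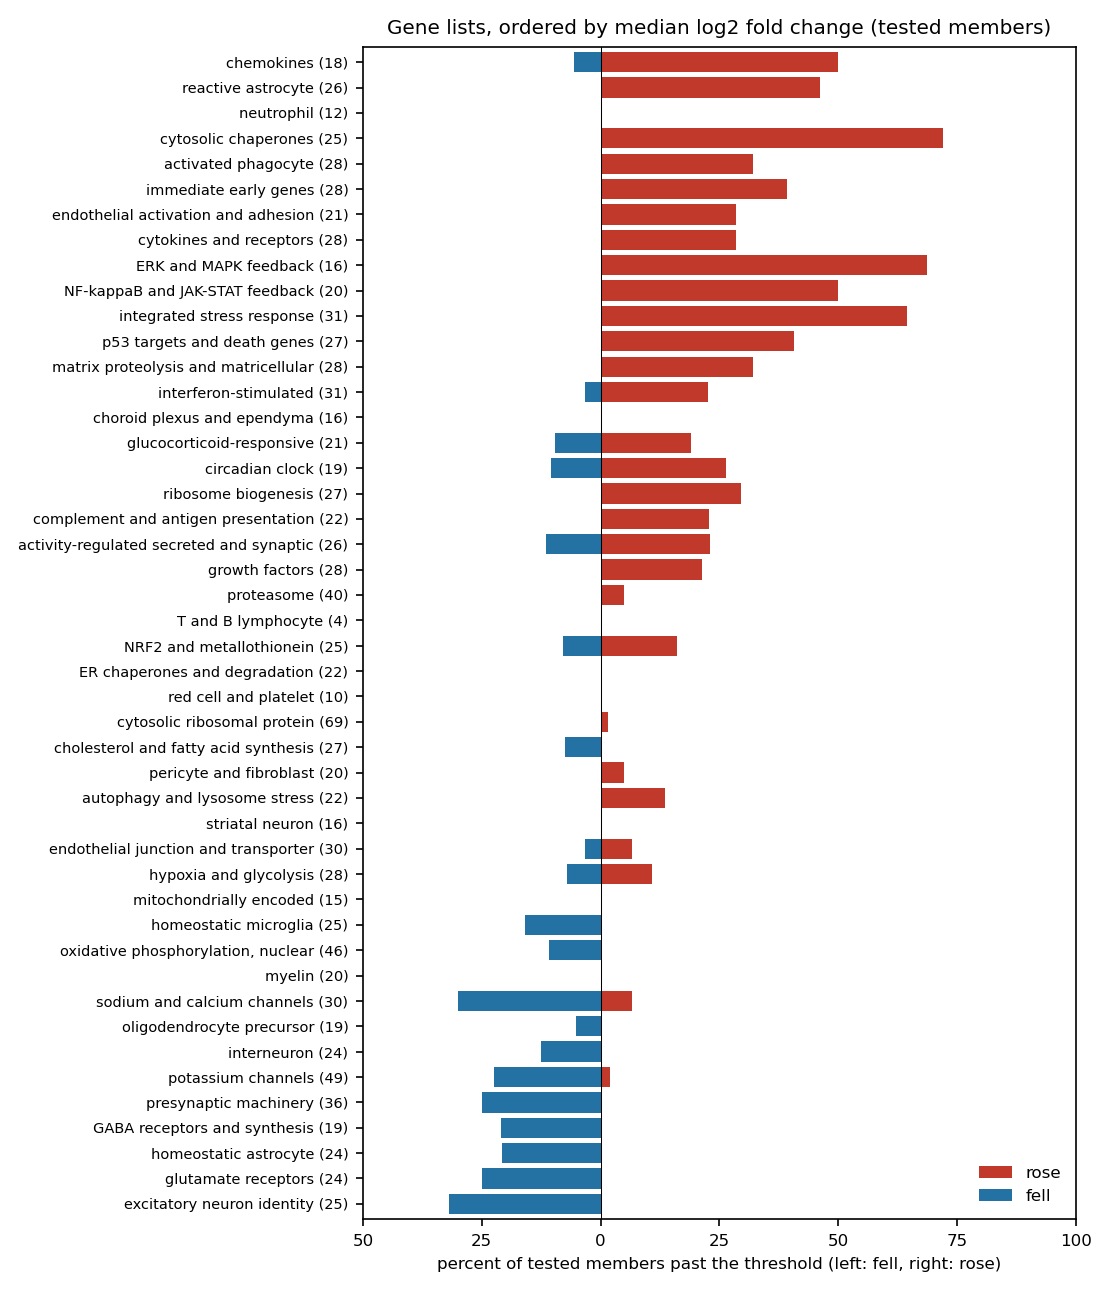
Bars give the percent of each list's tested members (number in brackets) that rose, to the right, or fell, to the left, with lists ordered by median log2 fold change. The longest bars to the right are cytosolic chaperones (18 of 25), ERK feedback (11 of 16) and the integrated stress response (20 of 31), and the longest to the left is excitatory neuron identity (8 of 25).

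Several large rises belonged to no listed group. Ttll13, a tubulin polyglutamylase gene, was at 12.98, 5.495 and 25.2 CPM against 0.920, 0.788 and 0.890 CPM (16.8-fold). A2m, a protease inhibitor of plasma, was at 20.3, 19.5 and 33.6 CPM against 3.51, 3.45 and 2.73 CPM with 1.78, 1.64 and 1.78 CPM in sham. Esr1, the estrogen receptor alpha, was at 33.3, 15.5 and 17.8 CPM against 4.32, 2.59 and 4.397 CPM. Wisp1, a matricellular protein, and Lrrc32, which holds latent TGF-beta at the cell surface, rose 6.11-fold and 5.68-fold. The antisense transcript Gm15124 (chr10:80371955-80373216, plus strand) was at 8.43, 3.04 and 10.7 CPM against 0.223, 0.139 and 0.278 CPM, and no source used here gives the strand setting of the counting. Ipsilateral replicate 2 was the lowest ipsilateral library for each of these genes. That every ipsilateral library lay above every contralateral one was a condition for naming them.

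Many neuronal genes fell. Of 25 excitatory neuron identity genes 8 fell and 0 rose (background 4.30% for falls), with a median of -0.46, and the count was 2 without ipsilateral replicate 1, 2 without ipsilateral replicate 3, 3 without contralateral replicate 2 and 2 without contralateral replicate 3. Lamp5 (chr2:136052239-136069917, plus strand), a membrane protein of upper-layer neurons, was at 42.6, 53.4 and 47.7 CPM ipsilaterally, 91.2, 98.4 and 94.9 CPM contralaterally and 76.96, 64.3 and 79.7 CPM in sham. It fell by 1.98-fold with an adjusted p of 2.23e-05, and the 3 groups did not overlap. Slc17a7, which loads glutamate into vesicles, fell by 1.39-fold, with an adjusted p of 0.0716 without ipsilateral replicate 1. The transcription factors Rorb, Mef2c and Tbr1 fell by 1.57-fold, 1.49-fold and 1.398-fold. Rorb lost its call without ipsilateral replicate 1 or 3, without contralateral replicate 2 or 3 and with the 6 compared libraries alone in the fit (adjusted p up to 0.166), Mef2c without ipsilateral replicate 1 or 3, without contralateral replicate 2 or 3 and with the 6 compared libraries alone in the fit (adjusted p up to 0.122) and Tbr1 without ipsilateral replicate 1, 2 or 3, without contralateral replicate 1, 2 or 3 and with RLE size factors (adjusted p up to 0.145). Rorb was at 60.2, 89.3 and 67.9 CPM against 77.5, 123 and 141 CPM, where the groups overlapped through contralateral replicate 1. Camk2a, Cux2 and Fezf2 did not pass, but Camk2a did with the replicate block (adjusted p = 0.0223).

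For 5 sodium channel genes that fell, every ipsilateral library lay below every contralateral one. This held for 15.7% of all tested genes, and 96.0% of all called genes had no overlap between the hemispheres. Scn1a was at 246, 253 and 249.5 CPM ipsilaterally and 382, 408 and 372 CPM contralaterally, with 361, 312 and 356 CPM in sham (1.55-fold lower, adjusted p = 0.000349). Scn2a1 was at 567, 610.0 and 539.7 CPM against 1030.0, 828 and 879 CPM, and Scn8a, Scn2b and Scn3b fell by 1.35-fold, 1.48-fold and 1.58-fold. Scn3b lost its call without ipsilateral replicate 1 or 3 and without contralateral replicate 1 or 3 (adjusted p up to 0.0755). Over the list of 30 sodium and calcium channel genes 9 fell and 2 rose, the T-type channel Cacna1h and the pacemaker channel Hcn4, and the count of falls was 4 without ipsilateral replicate 1, 5 without ipsilateral replicate 3 and 5 without contralateral replicate 1. Of 49 potassium channel genes 11 fell and 1 rose (median -0.24), with counts of falls of 5 without ipsilateral replicate 1, 6 without ipsilateral replicate 3 and 7 without contralateral replicate 1. Kcnh5 was at 79.1, 97.4 and 81.04 CPM against 126, 136 and 138 CPM, and the M-current subunit Kcnq3 at 89.9, 88.9 and 80.9 CPM against 122, 113 and 114 CPM. Kcna3, which microglia and T cells also express, rose 1.41-fold, a call lost without ipsilateral replicate 1 or 3 and without contralateral replicate 2 or 3 (adjusted p up to 0.232). The rise of Cacna1h was lost without ipsilateral replicate 1 or 3 and without contralateral replicate 2 or 3 (adjusted p up to 0.178) and that of Hcn4 without ipsilateral replicate 1 (adjusted p = 0.0661).

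Receptor genes for glutamate and for GABA fell in part. Of 24 glutamate receptor genes 6 fell and 0 rose, with a median of -0.37, and the count was 2 without ipsilateral replicate 1, 3 without contralateral replicate 1, 11 with the replicate block over all libraries and 14 with the replicate block within each time. The NMDA receptor subunit Grin2a was at 195, 238 and 212 CPM against 329, 303 and 294 CPM and 233, 257 and 282 CPM in sham, with no overlap between the hemispheres. The AMPA receptor subunits Gria3 and Gria1 fell by 1.56-fold and 1.35-fold, and the inhibitory autoreceptor Grm2 by 1.57-fold. Gria3 lost its call without ipsilateral replicate 1 (adjusted p = 0.053), and Gria1 without ipsilateral replicate 1 or 3 and without contralateral replicate 1 (adjusted p up to 0.158). Grin1 and Gria2 did not pass, but both did with the replicate block (adjusted p = 0.0352 and 0.0246). Of 19 GABA genes 4 fell and 0 rose, among them Gabbr1 by 1.39-fold and Gabrd by 1.28-fold, and Gabrd lost its call without ipsilateral replicate 1, 2 or 3 and without contralateral replicate 1 or 2 (adjusted p up to 0.136). That count was 2 without ipsilateral replicate 1, 2 without ipsilateral replicate 2, 2 without ipsilateral replicate 3, 2 without contralateral replicate 1, 7 with the replicate block over all libraries and 8 with the replicate block within each time. The synthesis genes Gad1 and Gad2 did not pass.

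Presynaptic genes had 9 of 36 members lower and 0 higher, with 2 without ipsilateral replicate 1 and 5 without ipsilateral replicate 3. The vesicle protein gene Syp was at 421, 495 and 455 CPM against 722, 625 and 602 CPM, and the calcium sensor Syt1 at 923, 1006 and 945 CPM against 1344, 1241 and 1263 CPM. Snap25, Stx1a, Syn1 and Vamp2 did not pass. Of 24 interneuron genes 3 fell (Cck, Vip and Crh), beside 4.30% of all tested genes. The count for interneuron genes was 0 without ipsilateral replicate 1, 1 without ipsilateral replicate 3 and 1 without contralateral replicate 2. Cck lost its call without ipsilateral replicate 1 (adjusted p = 0.137), and Vip without ipsilateral replicate 1 or 3 and without contralateral replicate 2 or 3 (adjusted p up to 0.115). Pvalb and Sst had log2 fold changes of -0.41 ± 0.19 and -0.25 ± 0.15. Of 46 nuclear genes of oxidative phosphorylation 5 fell and 0 rose (Cox7b, the lowest, by 1.46-fold, and Ndufa4 by 1.36-fold). That count was 2 without ipsilateral replicate 1, 2 without ipsilateral replicate 3, 2 without contralateral replicate 2 and 3 without contralateral replicate 3, and Cox7b lost its call without ipsilateral replicate 3 and without contralateral replicate 2 (adjusted p up to 0.0554). Of 15 mitochondrially encoded genes 0 passed in edgeR or DESeq2, also at an unadjusted p under 0.05.

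Some of the largest falls lay outside these groups. The nephrin-like adhesion gene Kirrel2 was at 8.07, 9.91 and 10.7 CPM ipsilaterally and 23.05, 17.6 and 22.1 CPM contralaterally, with 12.4, 14.8 and 16.4 CPM in sham. The sulfotransferase gene Sult1a1 and the ferroxidase gene Heph fell by 2.15-fold and 2.002-fold. The relaxin receptor Rxfp1 fell by 2.14-fold, the proline carrier Slc6a20a by 2.01-fold and the vesicular zinc transporter Slc30a3 by 1.85-fold. By CPM lost, the largest falls were in abundant neuronal and glial membrane genes. Gpm6a was at 1154, 1219 and 1233 CPM against 1936, 1605 and 1718 CPM (adjusted p = 0.0313, and 0.119 without ipsilateral replicate 1, 0.0734 without ipsilateral replicate 3, 0.111 without contralateral replicate 1 and 0.067 without contralateral replicate 3). Psap, a lysosomal sphingolipid activator, was at 960.0, 1081 and 1033 CPM against 1599, 1314 and 1236 CPM.

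Among the other lists, no member of the myelin list (20 tested) or the striatal list (16) passed in edgeR or DESeq2, with 1 myelin gene and 0 striatal genes at an unadjusted p under 0.05. With either replicate block 1 myelin gene fell. Of 27 cholesterol genes 2 fell, beside 4.30% of all tested genes, and the list's median log2 fold change was -0.041. The count of falls was 0 without ipsilateral replicate 1 or 2 and 0 without contralateral replicate 1 or 3. It was 1 without contralateral replicate 2 and 4 with the replicate block within each time. Enpp2, a lipid-producing ectoenzyme of myelin and choroid plexus, was at 108, 120.1 and 129 CPM against 271, 215 and 214 CPM and did not pass (adjusted p = 0.13). Its hemispheres did not overlap, and its adjusted p was 0.0428 with the replicate block, 0.0102 with the replicate block within each time and 7.41e-05 with the 6 compared libraries alone in the fit. Of 69 cytosolic ribosomal protein genes 1 rose (Rpl12, 1.86-fold), whereas 8 of 27 ribosome biogenesis genes rose and none fell (median 0.26, 5 without ipsilateral replicate 1, 5 without ipsilateral replicate 3 and 5 without contralateral replicate 1), among them Nop58 and Nop2 at 1.71-fold and 1.68-fold. Of 19 circadian clock genes 5 rose and 2 fell, beside 7.94% and 4.30% of all tested genes. These rises numbered 2 without ipsilateral replicate 1, 3 without ipsilateral replicate 3 and 3 without contralateral replicate 1. The falls numbered 1 without ipsilateral replicate 1, 1 without contralateral replicate 2 and 0 without contralateral replicate 3. Nfil3, which rose, was at 11.1, 10.9 and 13.1 CPM against 4.35, 5.84 and 5.705 CPM. Interferon-stimulated genes had 7 of 31 higher and 1 lower, led by the GTPase gene Gbp2 (3.39-fold), with 3 without ipsilateral replicate 3 and 3 without contralateral replicate 3 for the rises and 0 without ipsilateral replicate 1, 0 without ipsilateral replicate 3, 0 without contralateral replicate 2 and 0 without contralateral replicate 3 for the fall.

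Sham cortex gave a second reference for each difference. For 1272 of the 1437 genes that rose (88.5%), and for 629 of the 777 that fell (81.0%), the sham mean was nearer the contralateral than the ipsilateral mean. All 3 ipsilateral libraries lay above all 3 sham libraries for 80.3% of the rises, against 16.9% of all tested genes, and below them for 80.4% of the falls, against 17.3%. The contralateral libraries lay outside sham on the opposite side for 24.7% of the rises, against 8.75% of all genes, and for 26.6% of the falls, against 8.39%. Among the 222 genes (1.23%) that fell at least 1.5-fold this share was 39.6%. Cd34, Lamp5 and Kirrel2 were of this kind, with every contralateral library above and every ipsilateral library below the sham libraries, and for Sult1a1 the ipsilateral libraries overlapped sham. These shares are descriptions, since the ipsilateral and contralateral libraries were both used to call the genes, which fixes part of each share, and the labels do not state the time of the sham tissue.

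**Figure D4:**
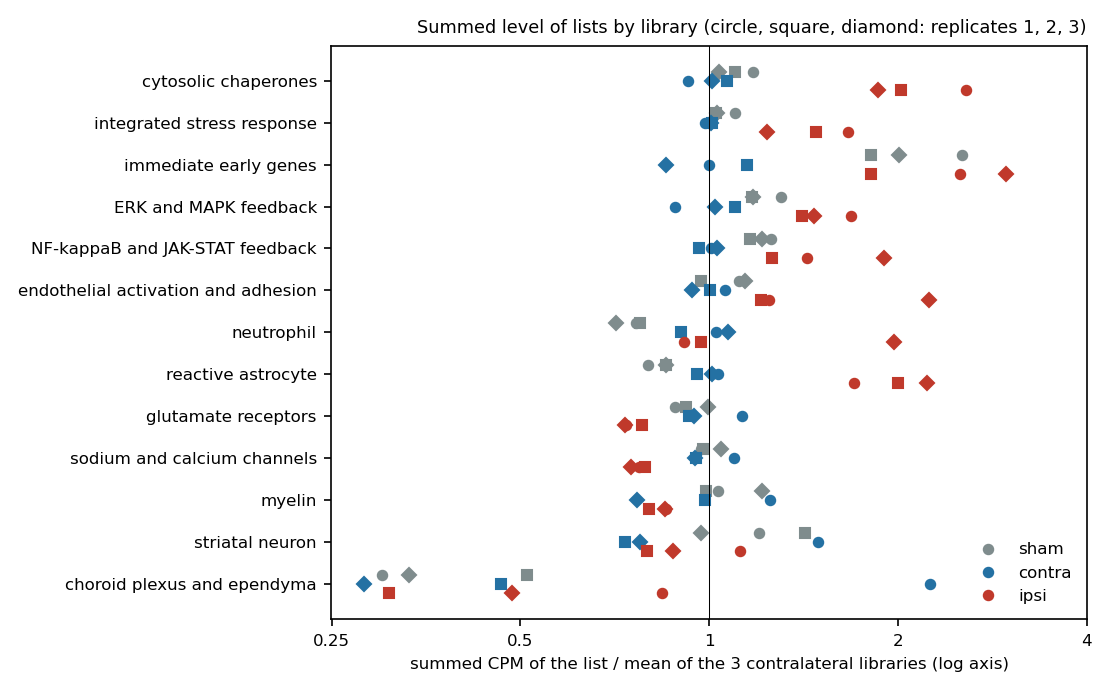
Summed CPM of 13 gene lists in each library, divided by the mean of the 3 contralateral libraries, on a log axis (red ipsilateral, blue contralateral, grey sham). Cytosolic chaperones separate ipsilateral libraries from the other 6, and immediate early genes of sham lie with the ipsilateral libraries. Contralateral replicate 1 is the highest contralateral library for striatal, myelin and choroid plexus genes. Its striatal and myelin sums lie near the highest sham library.

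The same contrast at 6 h and 24 h, made with the ipsilateral and contralateral libraries of those times, places the 12 h response in time. At 6 h 5.85% of the tested genes rose and 2.14% fell, and at 24 h 9.74% rose and 9.36% fell. Of the genes that rose at 12 h, 599 (41.7% of the 12 h rises and 56.6% of the 6 h rises) also rose at 6 h, and 742 (51.6% and 42.1%) also rose at 24 h. Of the genes that fell at 12 h, 171 also fell at 6 h (44.2% of the 6 h falls), and 544 (70.0% and 32.1%) fell at 24 h. At 12 h alone of these 3 times 473 rose and 200 fell. Immediate early genes had 22 of 28 members higher at 6 h, 11 at 12 h and then 9 at 24 h, while reactive astrocyte genes had 6, 12 and 24 of 26. Integrated stress response genes had 9 of 31 higher at 6 h, 20 at 12 h and then 18 at 24 h. Excitatory neuron identity genes had 2 lower at 6 h, 8 at 12 h and then 15 at 24 h. The differences between these counts were not tested.

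Tested gene by gene, the hemisphere difference at 12 h was unlike that at 6 h for 8 genes (0.0442%) at an adjusted p under 0.05 in edgeR, and unlike that at 24 h for 0 genes (0.00%). At an unadjusted p under 0.05 there were 1086 and 1444 genes, and DESeq2 called 30 and 12. Of the 8 genes, 4 (0.0221% of those tested) were more positive at 12 h. Trib3 had log2 fold changes of 1.14 ± 0.44, 1.30 ± 0.42, 4.54 ± 0.48 and 2.81 ± 0.42 at 3, 6, 12 and 24 h, and its 12 h value exceeded that at 6 h by 3.24 ± 0.64 (adjusted p = 0.0494, and 0.0764 with the replicate block). Sapcd2 went from 0.40 ± 0.29 at 6 h to 2.62 ± 0.31 at 12 h, and Adcy7, an adenylate cyclase of immune cells, from 0.42 ± 0.15 to 1.66 ± 0.15. Shmt2, the mitochondrial serine hydroxymethyltransferase, went from -0.18 ± 0.17 to 1.11 ± 0.17.

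The remaining 4 genes (0.0221%) changed sign between 6 h and 12 h. Adcy8, a calcium-stimulated adenylate cyclase of neurons, went from 0.42 ± 0.15 to -0.72 ± 0.15. At 12 h it was at 33.6, 36.4 and 29.1 CPM ipsilaterally and 57.2, 48.5 and 57.8 CPM contralaterally, with 32.8, 34.4 and 41.3 CPM in sham, so the contralateral libraries alone lay apart from sham. The protease Adamts15 went from 1.00 ± 0.20 to -0.53 ± 0.20, Gm13716, which is antisense to Lrrc55, from 0.65 ± 0.17 to -0.83 ± 0.17, and Samd3 from 1.62 ± 0.31 to -0.54 ± 0.29. Of the 12 h values, those of Adamts15 and Samd3 did not pass on their own, although Adamts15 did with the replicate block within each time (adjusted p = 0.047). The count of 8 ranged from 0 to 13 when 1 library of either time was left out, and it was 0 without contralateral replicate 1 or 2 at 12 h or without contralateral replicate 1 or 3 at 6 h.

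**Figure D5:**
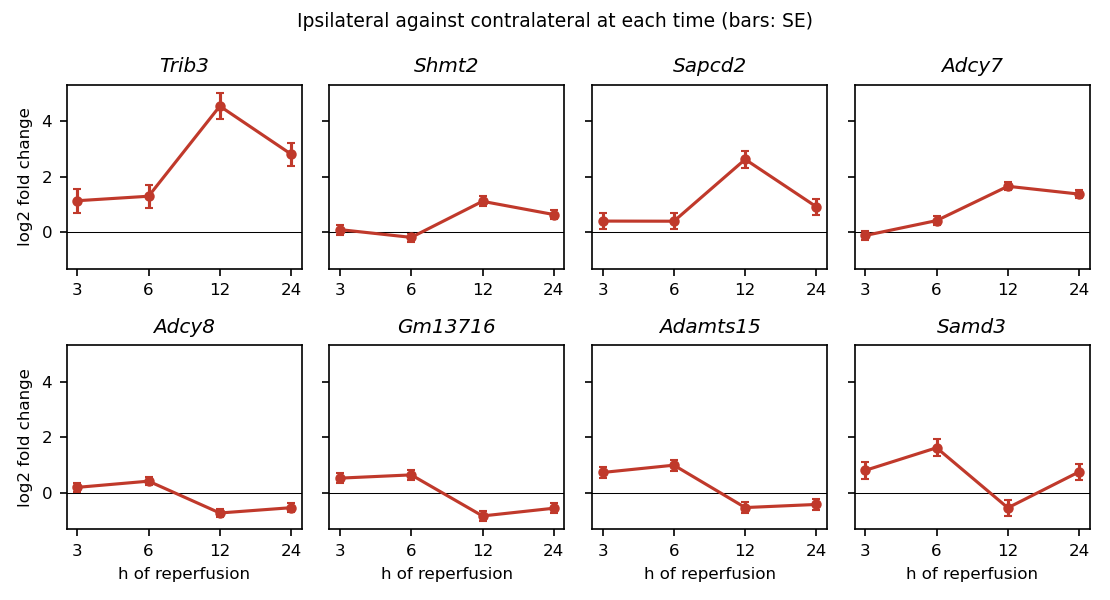
Log2 fold change (ipsilateral over contralateral) with SE bars at 3, 6, 12 and 24 h of reperfusion for the 8 genes whose 12 h difference was unlike that at 6 h. The upper 4 are more positive at 12 h (Trib3 from 1.30 to 4.54) and the lower 4 cross 0 (Adcy8 from 0.42 to -0.72).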

How the data were processed

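Total RNA of cortex, depleted of ribosomal RNA, was sequenced. The authors deposited whole-number read counts per gene. Per the submitters' processing notes the tools were STAR 2.5.0a, featureCounts 1.4.3-p1 and edgeR, with mm10. No source used here gives the annotation or strand setting of the counting. Genes passing filterByExpr (minimum count 10, total 15) were fitted in edgeR 4.0.16 (limma 3.58.1, R 4.3.3) with TMM scaling and 1 mean for each of the 9 groups of 3 libraries, so all 27 libraries share the spread. Quasi-likelihood tests were Benjamini-Hochberg adjusted (threshold 0.05). SE is that of the log2 fold change. P-values measure the spread between these libraries. DESeq2 1.42.0 was an alternative.

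Genes were named by rule: the 20 largest rises and 20 largest falls among called, non-overlapping genes of at least 5 CPM, the 8 largest in CPM each way, and 4 members of each of 46 lists by smallest p. Other members were named after their values were seen, and some genes the rule names are not reported here. Members and lists were chosen with earlier results of these data known. Gene coordinates are from GENCODE M21 (mm10). Per the labels a replicate number is a surgery day. Residuals of same-numbered 12 h libraries correlated at 0.0486, 0.113 and -0.0325, and fits with a replicate block were run. In simulated data of 17859 genes for the 12 h comparison, 67, 67 and 66 genes were changed 1.5-fold, 2-fold and 4-fold. Of these 40.3%, 83.6% and 98.5% were recovered, and 10 of 158 calls were false. The real data had far more calls (2214), which makes the p-value needed to pass less strict, so these shares do not carry over to them. Ratios of summed counts carry exact 95% counting intervals.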

Additional observations from a re-analysis of the deposited data

Results flagged for a closer look

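The hemisphere difference changed between 6 h and 12 h for 8 genes, each by a test of the difference itself in edgeR with Benjamini-Hochberg adjustment. Of these, 4 were more positive at 12 h: Trib3 by 3.24 ± 0.64 on the log2 scale (SE, adjusted p = 0.0494), Sapcd2 by 2.23 ± 0.42 (adjusted p = 0.0418), Shmt2 by 1.30 ± 0.25 (adjusted p = 0.0418) and Adcy7 by 1.23 ± 0.21 (adjusted p = 0.0198). The other 4 were more negative at 12 h: Samd3 by -2.16 ± 0.42 (adjusted p = 0.0494), Adamts15 by -1.52 ± 0.28 (adjusted p = 0.0418), Gm13716 by -1.48 ± 0.24 (adjusted p = 0.0198) and Adcy8 by -1.14 ± 0.22 (adjusted p = 0.0418). Each of the 8 lost its call when some single libraries of the 6 h or 12 h groups were left out. Trib3 also lost its call with the replicate block (adjusted p = 0.0764) and with a filter of at least 1 CPM in 3 libraries (0.0564), Shmt2 with only the compared libraries (0.0772) and Samd3 with no filter on low counts (0.0532). Shmt2 overlaps Ndufa4l2 and Gm13716 overlaps Lrrc55 in the annotation, and the part of the neighbouring gene in these counts was not tested.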

How the results depend on the processing

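No named gene that was called changed sign. The medians of some lists did, among them that of neutrophil genes, which ran from -0.17 to 1.02, that of T and B lymphocyte genes from -0.37 to 0.80, that of endoplasmic reticulum chaperones from -0.055 to 0.089 and that of endothelial junction genes from -0.20 to 0.056. The count of genes called at 12 h ranged from 889 to 2406 when 1 of the 6 libraries was left out, with 702 to 1587 rises, 187 to 819 falls and 333 to 700 rises of at least 2-fold. It was 2497 with the replicate block and 2906 with the replicate block within each time, where 1174 genes fell. Without the 2 libraries of other times, an alternative chosen after seeing the data, 3468 were called and 1370 fell. The difference between 12 h and 6 h was called for 27 genes with only the compared libraries, 30 with DESeq2, 7 with the replicate block, 19 with the replicate block within each time, 15 without the 2 libraries of other times and 0 to 13 when 1 library was left out. That between 24 h and 12 h was called for 12 genes by DESeq2 and for 0 to 35 in the leave-outs. Response levels from all 1762 genes that rose at 24 h, whether or not they were called at other times, were 0.54, 0.32 and 0.70 in ipsilateral replicates 1, 2 and 3. The AP-1 share was 7.32% in promoters of all rises. The causes were not tested. Of 52 genes named by size, 36 were called under every alternative and 37 without each 12 h library. Most 1.5-fold changes were missed in the simulated data, where far fewer genes were changed than were called here, so the share missed in the real data is not known.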
